A study of Mus musculus with 4 samples.

Results

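The 41 genes described here encode nucleolar proteins that make ribosomes. They are the array probes, controls left out, whose gene name in the scanner files was one of 41 listed symbols, out of 37008 genes on the array. Messenger RNA was measured in RAW264.7 cells, a mouse macrophage line transformed by a leukaemia virus, on 4 one-colour Agilent arrays with 1 array for each of 4 groups. The groups were Mfp2-/- cells stimulated with lipopolysaccharide (LPS), unstimulated Mfp2-/- cells, wild-type cells stimulated with LPS, and unstimulated wild-type cells. Mfp2 is another name of Hsd17b4, the D-bifunctional protein of peroxisomal beta-oxidation, and LPS is the bacterial outer membrane component that macrophages sense through Toll-like receptor 4. Neither the dose and duration of LPS nor the way the knockout was made or its number of clones is given in the sources used here. With 1 array a group there is no replicate check, so differences below are between single cultures. The error given beside a difference of 2 arrays is the spread of replicate spots within an array, which leaves out the spread between cultures. The precision is limited by the number of arrays.

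Ribosomes are assembled in the nucleolus, where RNA polymerase I transcribes the long ribosomal RNA precursor. Box C/D and box H/ACA small nucleolar ribonucleoproteins (snoRNPs) methylate and pseudouridylate that precursor, and a large early particle, the small subunit processome, folds and cleaves it around the U3 snoRNP. Separate sets of helicases, scaffolds and methyltransferases then build the small and the large subunit. In many cell types these genes follow growth signals and the transcription factor Myc, and macrophages activated with LPS alter both growth and Myc.

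Levels are given as log2 of the processed signal minus log2 of the array's own 75th percentile, so a level of 0 is the signal at that percentile. A gene is said to rise or fall when its level differed by at least 2-fold, which is 1 on the log2 scale. All 41 genes were well above background on all 4 arrays, as were 15516 of the 37008 genes, and each gene was followed by its brightest usable probe of 86 in all. The arrays had between 47.4% and 49.7% of their 59305 spots well above background and 0 saturated spots, and lay on 1 slide with 1 scan time. The spread of replicate spots was widest on the array of LPS-stimulated Mfp2-/- cells, with a median SD of 0.0763 on the log2 scale, against 0.0369 to 0.0474 on the other arrays. Hsd17b4 was at 1.39 in LPS-stimulated Mfp2-/- cells, at 2.17 in unstimulated Mfp2-/- cells, at 2.60 in LPS-stimulated wild-type cells and at 3.06 in unstimulated wild-type cells. Its signal in Mfp2-/- cells was 43.3% of wild type with LPS and 54.0% without, and whether its probe lies in the deleted part is not given in the sources used here. All 12 macrophage markers listed were above background on all 4 arrays, and 11 of 14 markers of fibroblasts, epithelium, lymphocytes, endothelium, liver and red cells were above background on 0 arrays. Of the other 3, Cd3e was above background on all 4 arrays, Pecam1 on 3 and Cd3d on the 2 LPS arrays.

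Sequences are shown for the genes on which the results turn, first the promoters of genes that rose together with LPS in Mfp2-/- cells. Each runs from 250 bases before to 50 bases after the annotated start (RefSeq, GRCm38.p6), 5′ to 3′ on the gene's strand, and capitals mark the motifs CACGCG and GGAAGTG on either strand.
Nop14, chr5:34660099-34660398, minus strand: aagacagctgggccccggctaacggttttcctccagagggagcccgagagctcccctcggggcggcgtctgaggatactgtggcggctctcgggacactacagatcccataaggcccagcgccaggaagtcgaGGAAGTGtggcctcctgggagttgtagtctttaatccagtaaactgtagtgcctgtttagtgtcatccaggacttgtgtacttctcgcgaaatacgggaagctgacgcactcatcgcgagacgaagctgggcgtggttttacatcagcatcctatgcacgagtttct
Rrp9, chr9:106477059-106477358, plus strand: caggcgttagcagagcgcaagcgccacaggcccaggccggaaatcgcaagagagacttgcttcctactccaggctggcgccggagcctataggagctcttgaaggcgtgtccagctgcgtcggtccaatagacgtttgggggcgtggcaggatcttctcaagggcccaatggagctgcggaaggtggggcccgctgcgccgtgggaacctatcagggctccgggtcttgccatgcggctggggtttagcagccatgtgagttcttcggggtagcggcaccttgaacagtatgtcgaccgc
Noc3l, chr19:38819188-38819487, minus strand: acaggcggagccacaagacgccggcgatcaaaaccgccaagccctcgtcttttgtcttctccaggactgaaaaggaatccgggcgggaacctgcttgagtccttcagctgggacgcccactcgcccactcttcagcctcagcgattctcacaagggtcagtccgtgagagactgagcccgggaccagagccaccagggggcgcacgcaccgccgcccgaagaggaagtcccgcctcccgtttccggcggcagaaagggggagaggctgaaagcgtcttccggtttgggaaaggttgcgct
Ddx21, chr10:62602249-62602548, minus strand: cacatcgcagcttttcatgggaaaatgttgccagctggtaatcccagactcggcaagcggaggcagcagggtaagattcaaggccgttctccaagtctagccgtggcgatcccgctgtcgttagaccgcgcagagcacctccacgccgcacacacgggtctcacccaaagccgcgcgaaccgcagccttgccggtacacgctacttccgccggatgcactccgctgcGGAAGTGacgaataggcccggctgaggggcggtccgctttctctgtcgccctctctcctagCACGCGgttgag
Rrp12, which rose with them, had no entry in the promoter table.

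Of these 4 promoters, Ddx21 holds 1 match of each motif, Nop14 holds 1 match of GGAAGTG, and Rrp9 and Noc3l hold neither. A promoter entry was found for 34 of the 41 genes. The motifs searched, on both strands, were the palindromic E-box CACGTG, the E-box variant CACGCG (reverse complement CGCGTG) and the ETS-type GGAAGTG (reverse complement CACTTCC). The ETS-type motif was in 15 of the 34 promoters (44.1%), against 12.5% of all 27025 promoters and 17.8% of the 9489 promoters of genes above background. The E-box variant was in 12 (35.3%), against 10.5% of all promoters and 19.8% of those of genes above background. The palindromic E-box was in 4 (11.8%), in Mybbp1a, Nop2, Pes1 and Wdr43, against 8.09% of all and 11.8% of genes above background. These are matches of letters in a fixed window, counted without a test.

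Probe sequences (60 bases, 5′ to 3′) are shown where the identity of the probe matters, which is Nop14, the 1 gene called in the comparison of genotypes, measured by a single probe, and Npm1, whose 3 probes gave different responses.
Nop14: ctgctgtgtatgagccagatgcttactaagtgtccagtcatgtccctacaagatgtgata
Npm1 probe A_66_P129873: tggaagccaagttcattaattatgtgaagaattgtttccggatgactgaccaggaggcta
Npm1 probe A_55_P1954965: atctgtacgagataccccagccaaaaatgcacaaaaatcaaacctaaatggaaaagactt
Npm1 probe A_55_P2117243: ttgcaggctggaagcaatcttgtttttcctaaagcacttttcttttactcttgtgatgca
The files place the Nop14 probe at chr5:34986699-34987391 in mm9, on the minus strand, a span longer than the probe itself. They place the Npm1 probes, in the order shown, at chr11:33052849-33054041, chr11:33056689-33056991 and chr11:33055026-33055085 in mm9, all on the minus strand. The first is listed for transcript NM_008722 and the other two for NM_001252261.

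With LPS, 5 of the 41 genes rose in Mfp2-/- cells and 0 fell. They were the small subunit factors Nop14, Rrp9 and Rrp12, the large subunit factor Noc3l and the RNA helicase Ddx21, and they rose between 2.10-fold and 2.59-fold. That is 5 of 41, close to the 11.1% of the 18388 measured genes that rose in the same cells, while 12.4% of genes fell. Nop14, Rrp9, Noc3l and Ddx21 were each measured by a single probe, so their rises have no second probe as a check. The median difference of the 41 genes was 0.28, against -0.00067 over all measured genes, and 34 of 41 were above 0, against 9188 of the 18388 genes. The median was 0.15 with quantile normalization and 0.044 with spike-in centring, with 26 and 22 of the 41 genes above 0. Over all measured genes it was -0.061 and -0.24 in those settings. The technical SD of such a difference, from probes spotted repeatedly on each array, was 0.0943. Per cell amounts of RNA and the number of cells harvested cannot be told apart from these values, which are relative to each array. Of the 41 genes, 28 lay among the brightest 3879 of the 15516 genes above background on all arrays, and over those bright genes the median LPS difference was 0.15 in Mfp2-/- cells and 0.14 in wild-type cells.

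In wild-type cells 0 of the 41 genes rose and 0 fell with LPS, against 9.97% of 18200 genes that rose and 8.39% that fell. The median difference of the 41 was 0.04, against 0.03 over all genes, with 24 of 41 above 0, against 51.9% of genes, and a technical SD of 0.0551. The sign of this median depended on the scaling, with -0.049 and 13 of 41 above 0 after quantile normalization, and -0.18 and 10 of 41 after spike-in centring. The median over all genes moved with it, to -0.053 and -0.20. Differences ran between -0.77 for Rrp1b and 0.69 for Noc3l. A difference under 0.5 in size was found for 35 of the 41 genes, or 85.4%, against 55.9% of all measured genes. In Mfp2-/- cells it was found for 32 of 41, or 78.0%, against 47.7% of genes.

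**Figure D1:**
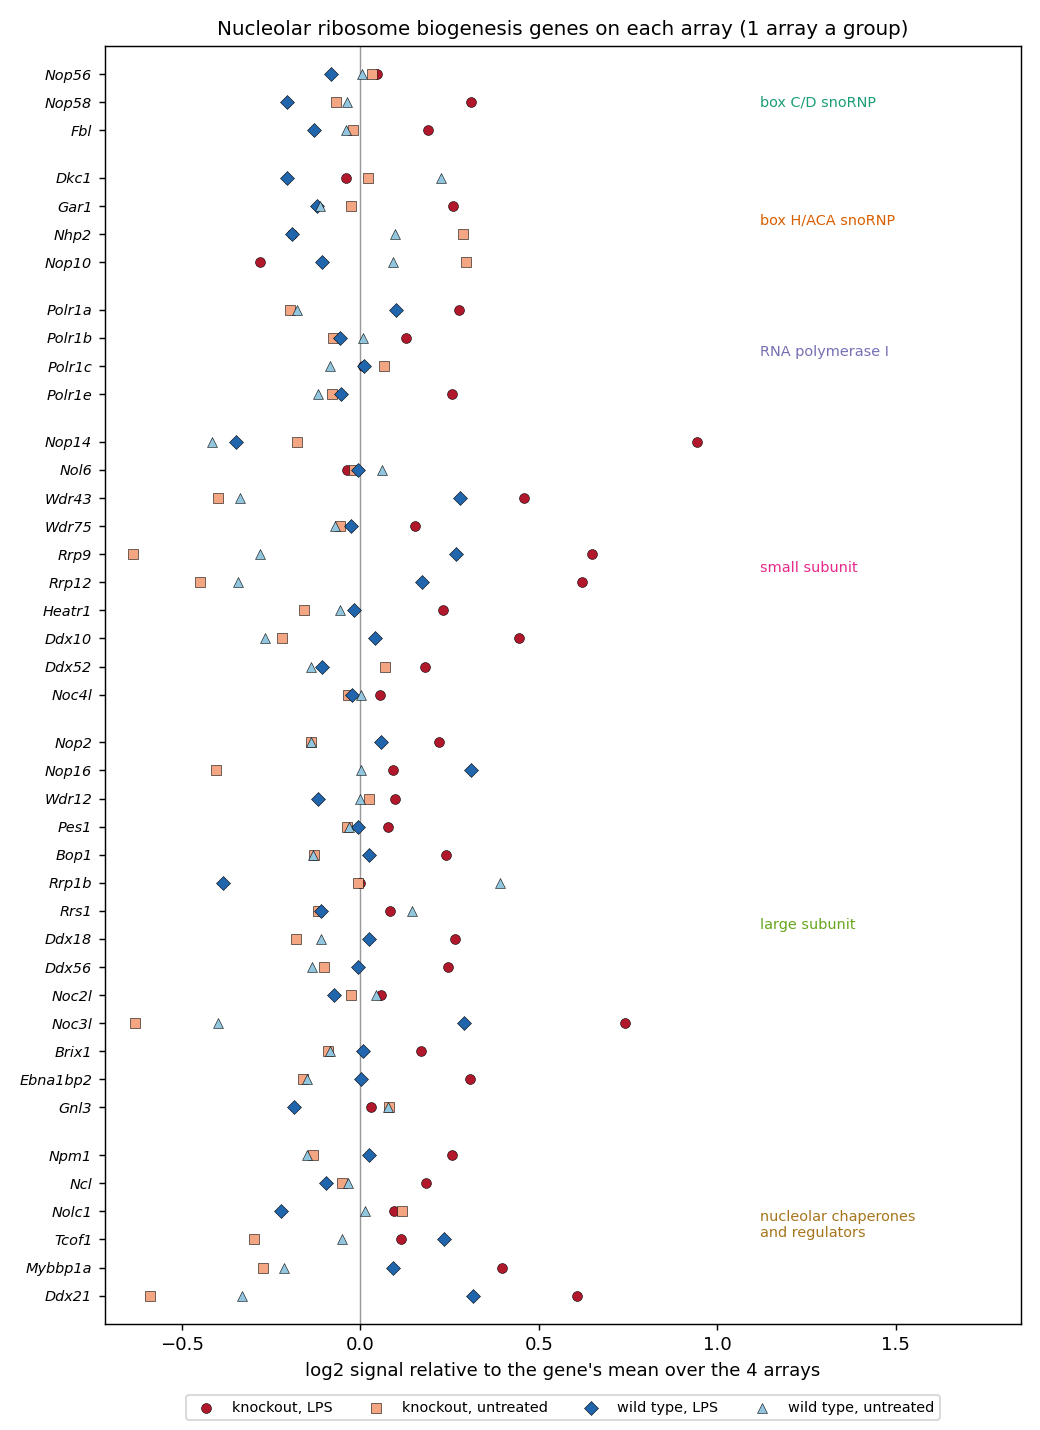
Level of each of the 41 genes on each of the 4 arrays (log2 signal minus the gene's mean over the arrays, x axis), grouped by role, with 1 point for each array and no error bar since each group is 1 array. The array of LPS-stimulated Mfp2-/- cells (dark red circles) holds the highest level of 30 of the 41 genes.

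The highest of the 4 levels was in LPS-stimulated Mfp2-/- cells for 30 of the 41 genes (73.2%), and that array was the highest for 31.0% of the 15516 genes above background on all arrays. The lowest was in unstimulated Mfp2-/- cells for 18 of 41 (43.9%), against 26.9% of genes. LPS-stimulated wild-type cells held the lowest level of 12 of the 41 (29.3%), against 22.4% of genes.

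Between the genotypes with LPS, Nop14 was the 1 gene of 41 that was higher in Mfp2-/- cells by at least 2-fold and 0 were lower, against 1.68% of 17727 genes that were higher and 4.64% that were lower. The median difference between Mfp2-/- and wild-type cells with LPS was 0.22, against 0.0097 over all genes, with 36 of 41 above 0, against 51.3% of genes. The range was -0.22 for Nop16 to 1.29 for Nop14, and the technical SD was 0.0883. Most of these differences were small, with 39 of 41 under 0.5 in size, against 77.4% of genes. Over the brightest 3879 genes the median was 0.03.

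Without LPS, 0 of the 41 genes were higher or lower by 2-fold in Mfp2-/- cells than in wild-type cells, against 3.01% of 18400 genes that were higher and 4.04% that were lower. The median difference was -0.01, against 0.03 over all genes, with 17 of 41 above 0, against 55.0% of genes. All 41 were under 0.5 in size, against 79.2% of genes, and ran between -0.41 for Nop16 and 0.24 for Nop14. The technical SD was 0.0633, and 21 of the 41 genes lay beyond it.

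**Figure D2:**
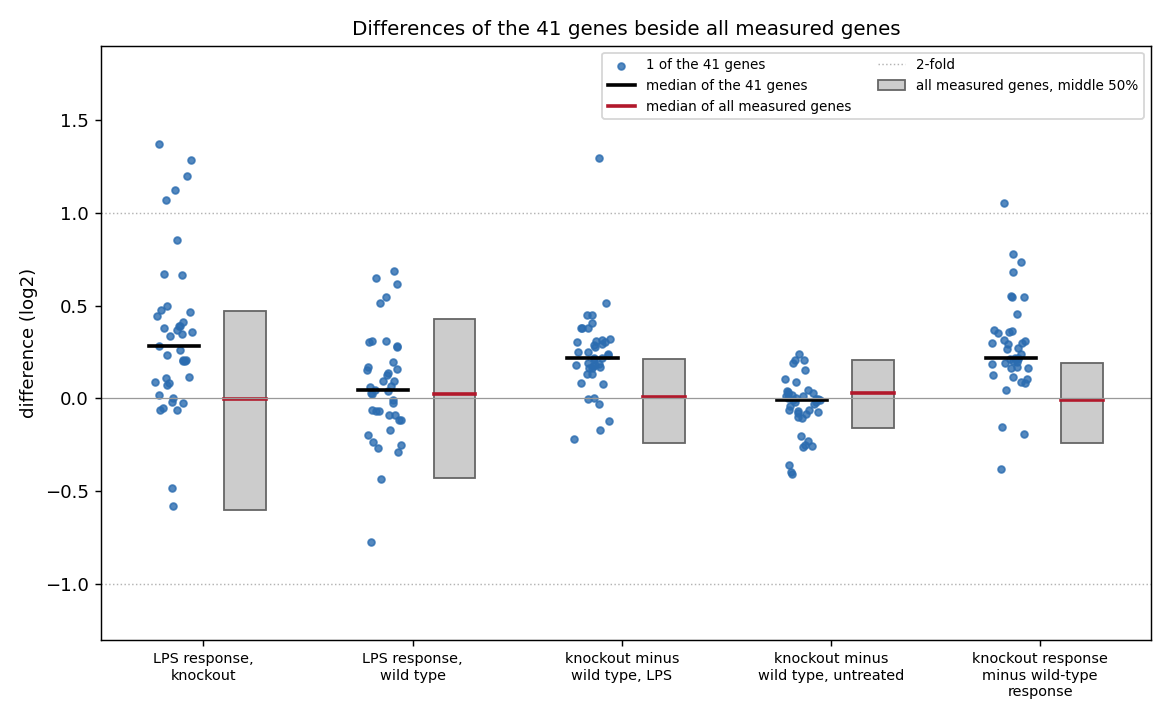
Differences on the log2 scale for the 41 genes (points, black bar at their median) in each comparison, beside the middle 50% of all measured genes (grey box, red bar at the median). The 41 genes have medians of 0.28 and 0.04 for the LPS response of Mfp2-/- (knockout) and wild-type cells, 0.22 and -0.01 for knockout minus wild type with and without LPS, and 0.22 for the difference of the responses.

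The LPS response of Mfp2-/- cells minus that of wild-type cells was above 0 for 38 of the 41 genes, against 49.2% of the 15516 genes above background on all arrays. Its median was 0.22, against -0.0066 over all genes and 0.0077 over the brightest 3879, with a technical SD of 0.111. Nop14 was the 1 gene of 41 past 2-fold (1.06), against 1.64% of genes past it in this direction and 2.98% in the other, where 0 of the 41 were. With normexp, with quantile normalization and in the series table, 0 of the 41 were past 2-fold (Nop14 at 0.79 with normexp). Over all genes 0.883%, 1.71% and 1.71% were past it there in the direction of Nop14. The 3 genes with a negative difference were Nop10 (-0.38), Nhp2 (-0.19) and Polr1c (-0.15), and a second Polr1c probe gave 0.26. No interaction test could be fitted with 1 array a group, so the difference of the responses was not tested, and neither was the part that the wider spot spread on the array of LPS-stimulated Mfp2-/- cells has in it. This value rests on all 4 arrays, and any offset of 1 array enters it as well as the comparisons that share that array.

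**Figure D3:**
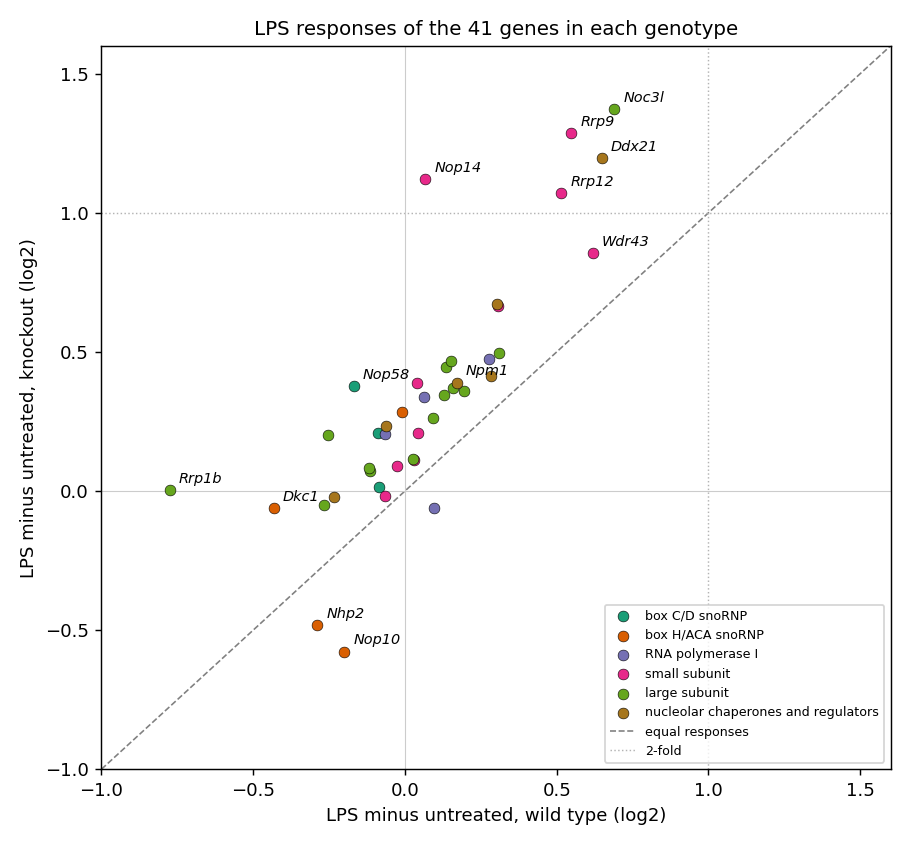
LPS minus untreated level (log2) of each of the 41 genes in knockout (Mfp2-/-) cells on the y axis and in wild-type cells on the x axis, coloured by role, with dotted lines at 2-fold and a dashed line of equal responses. Of the 41 points, 38 lie above the dashed line, and Noc3l, Rrp9, Ddx21, Nop14 and Rrp12 lie above the 2-fold line of the y axis.

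The LPS responses of the 2 genotypes share no array. Over the 41 genes they correlated at Pearson's r = 0.81 and Spearman's rho = 0.86, and over all 15516 genes at r = 0.89 and rho = 0.86. The genes of a pair of arrays share labelling and scaling, and these are descriptions across genes, which are not independent replicates.

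Among factors of the small subunit, 3 of 10 rose with LPS in Mfp2-/- cells, where 11.1% of all measured genes rose, and the median difference was 0.53, against 0.06 in wild-type cells. Nop14, a component of the small subunit processome, was at 2.68 in LPS-stimulated Mfp2-/- cells, 1.56 in unstimulated Mfp2-/- cells, 1.39 in LPS-stimulated wild-type cells and 1.32 in unstimulated wild-type cells. One array stands above the other 3, which lie within 0.24 of each other. The LPS difference was 2.18-fold in Mfp2-/- cells and 1.05-fold in wild-type cells, and with LPS the level was 2.45-fold higher in Mfp2-/- than in wild-type cells. With normexp background correction the difference between genotypes with LPS was 0.79, under 2-fold. Noc4l, the partner of Nop14 known from yeast, differed with LPS by 0.09 in Mfp2-/- cells and by -0.03 in wild-type cells.

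Rrp9, a protein specific to the U3 snoRNP, was at 3.03 in LPS-stimulated Mfp2-/- cells, 1.75 in unstimulated Mfp2-/- cells, 2.65 in LPS-stimulated wild-type cells and 2.10 in unstimulated wild-type cells. Rrp12, an export factor of the small subunit, was at 4.66 and 3.59 in Mfp2-/- cells with and without LPS, and at 4.21 and 3.70 in wild-type cells with and without LPS. Both genes were higher on both LPS arrays than on either unstimulated array. Rrp9 was 2.44-fold higher with LPS in Mfp2-/- cells and 1.46-fold in wild-type cells, and Rrp12 was 2.10-fold and 1.43-fold higher. A second probe of Rrp12 gave 1.08 on the log2 scale in Mfp2-/- cells and 0.13 in wild-type cells. The LPS difference of Rrp12 in Mfp2-/- cells was under 2-fold after normexp (0.86) and after quantile (0.93) and spike-in (0.83) scaling, and in the series table (0.93), and that of Nop14 after normexp (0.74) and spike-in scaling (0.88).

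Wdr43, Wdr75 and Heatr1 belong to the subcomplex of the processome that assembles first on the nascent transcript. Wdr43 differed with LPS by 0.86 in Mfp2-/- cells and by 0.62 in wild-type cells, with levels of 4.30 and 3.45 in Mfp2-/- cells and 4.13 and 3.51 in wild-type cells, with and without LPS. Its 2 LPS arrays were above its 2 unstimulated arrays. Heatr1 differed by 0.39 in Mfp2-/- and 0.04 in wild-type cells, and Wdr75 by 0.21 and 0.04. Of the helicases, Ddx10 differed by 0.66 in Mfp2-/- and 0.31 in wild-type cells, and Ddx52 by 0.11 and 0.03. Nol6, another processome component, had the smallest response of these 10 in Mfp2-/- cells (-0.02, and -0.07 in wild-type cells).

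Among factors of the large subunit, 1 of 14 rose with LPS in Mfp2-/- cells, close to the 11.1% of all genes, and the medians were 0.30 in Mfp2-/- and 0.11 in wild-type cells. Noc3l, the homologue of a yeast factor that escorts early large subunit particles, was at 1.36 in LPS-stimulated Mfp2-/- cells, -0.01 in unstimulated Mfp2-/- cells, 0.91 in LPS-stimulated wild-type cells and 0.22 in unstimulated wild-type cells. The order of the arrays was the same as for Rrp9, with both LPS arrays on top. The LPS difference of Noc3l was 2.59-fold in Mfp2-/- cells and 1.61-fold in wild-type cells, the largest increase among the 41 genes in both genotypes. Noc2l, its partner in yeast, differed by 0.08 in Mfp2-/- and -0.12 in wild-type cells, and a second Noc2l probe gave -0.97 and -1.01.

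Pes1, Bop1 and Wdr12 form the PeBoW complex, which processes the precursor of the large subunit RNAs. Their LPS differences were 0.12, 0.37 and 0.07 in Mfp2-/- cells and 0.03, 0.16 and -0.12 in wild-type cells, so that all 3 were within 1.5-fold. Rrp1b, a nucleolar protein of the large subunit pathway, was at 1.10 and 1.09 in Mfp2-/- cells with and without LPS, and at 0.72 and 1.49 in wild-type cells with and without LPS. Only its wild-type pair was apart, with a difference of -0.77, against 0.00 in Mfp2-/- cells. Other Rrp1b probes above background on all arrays gave 0.15 and -0.56 in Mfp2-/- cells and -0.18 and -0.82 in wild-type cells.

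Nop16 was at 3.49 and 2.99 in Mfp2-/- cells and at 3.71 and 3.40 in wild-type cells, with and without LPS. It was one of 2 genes, with the Pol I cofactor Tcof1, whose highest level on the probe used was in LPS-stimulated wild-type cells. A second Tcof1 probe was highest in LPS-stimulated Mfp2-/- cells, at 4.03, against 3.89 in LPS-stimulated wild-type cells. Rrs1, which helps to bring 5S ribosomal RNA into the large subunit, differed with LPS by 0.20 in Mfp2-/- and by -0.25 in wild-type cells. The remaining large subunit factors were the methyltransferase Nop2, the helicases Ddx18 and Ddx56, the assembly factors Brix1 and Ebna1bp2, and the GTP-binding Gnl3 (nucleostemin). Their LPS differences ran between -0.05 for Gnl3 and 0.47 for Ebna1bp2 in Mfp2-/- cells, and between -0.27 for Gnl3 and 0.19 for Nop2 in wild-type cells. A second Brix1 probe gave -0.77 in Mfp2-/- and -0.68 in wild-type cells, opposite in sign to the 0.26 and 0.09 of the probe used.

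Nop56, Nop58 and Fbl, core proteins of box C/D snoRNPs, each had their lowest level in LPS-stimulated wild-type cells on the probe used, and 0 of the 3 passed 2-fold in any comparison. A second Nop56 probe was lowest in unstimulated Mfp2-/- cells, by a margin under 0.01. Nop58 was at 4.98 in LPS-stimulated Mfp2-/- cells, 4.60 in unstimulated Mfp2-/- cells, 4.46 in LPS-stimulated wild-type cells and 4.63 in unstimulated wild-type cells. The responses had opposite signs, 0.38 in Mfp2-/- and -0.17 in wild-type cells. Nop58 had 5 probes above background on all arrays, and all 5 were negative in wild-type cells (-0.17, -0.20, -1.25, -0.73 and -0.19) while 4 of 5 were positive in Mfp2-/- cells (0.38, 0.28, 0.55, -0.05 and 0.14). Fibrillarin (Fbl), the methyltransferase of these particles, differed by 0.21 in Mfp2-/- and by -0.09 in wild-type cells, and Nop56 by 0.02 and -0.09. Another Nop56 probe, listed for another transcript, gave -0.65 and -0.74.

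Of the 4 box H/ACA proteins, 0 passed 2-fold, and the median LPS difference was -0.27 in Mfp2-/- and -0.24 in wild-type cells. Nop10 was at 4.21 and 4.78 in Mfp2-/- cells and at 4.38 and 4.58 in wild-type cells, with and without LPS. Nhp2 was at 6.14 and 6.62 in Mfp2-/- cells and at 6.14 and 6.43 in wild-type cells. For both genes the 2 LPS arrays were below the 2 unstimulated arrays, with differences of -0.58 and -0.48 in Mfp2-/- cells and -0.20 and -0.29 in wild-type cells. Dyskerin (Dkc1), the pseudouridine synthase, differed by -0.06 in Mfp2-/- and -0.43 in wild-type cells, with -0.50 and -0.74 on a second probe, and Gar1 by 0.28 and -0.01.

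RNA polymerase I was represented by 4 subunits, of which 0 passed 2-fold. The largest catalytic subunit Polr1a differed with LPS by 0.48 in Mfp2-/- and 0.28 in wild-type cells, Polr1b, the second largest, by 0.20 and -0.07, and Polr1e by 0.34 and 0.06. Polr1c, which RNA polymerase I shares with RNA polymerase III, differed by -0.06 in Mfp2-/- and 0.09 in wild-type cells, and a second probe gave 0.33 and 0.07.

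Among nucleolar chaperones and regulators, 1 of 6 rose with LPS in Mfp2-/- cells, against 11.1% of all genes. Ddx21, an RNA helicase that acts in transcription and processing of ribosomal RNA, was at 4.69 in LPS-stimulated Mfp2-/- cells, 3.49 in unstimulated Mfp2-/- cells, 4.40 in LPS-stimulated wild-type cells and 3.75 in unstimulated wild-type cells. Both LPS arrays lay above both unstimulated arrays. The LPS difference was 2.29-fold in Mfp2-/- and 1.57-fold in wild-type cells, and with spike-in centring it was under 2-fold in Mfp2-/- cells (0.96). Mybbp1a, a Myb-binding nucleolar protein, differed by 0.67 in Mfp2-/- and 0.30 in wild-type cells, Tcof1 (treacle) by 0.41 and 0.29, nucleolin (Ncl) by 0.23 and -0.06, and the snoRNP chaperone Nolc1 by -0.02 and -0.23. The second Tcof1 probe gave 0.86 in Mfp2-/- and 0.39 in wild-type cells.

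Nucleophosmin (Npm1), an abundant histone and ribosome chaperone, was at 7.55 and 7.16 in Mfp2-/- cells and at 7.32 and 7.15 in wild-type cells, with and without LPS, on probe A_66_P129873. Its LPS differences were 0.39 in Mfp2-/- and 0.17 in wild-type cells. Probe A_55_P1954965 gave 0.15 and 0.32, and probe A_55_P2117243 gave 2.14 and 0.34. On probe A_55_P2117243 the levels were 6.13 in LPS-stimulated Mfp2-/- cells, 3.99 in unstimulated Mfp2-/- cells, 5.44 in LPS-stimulated wild-type cells and 5.11 in unstimulated wild-type cells. The unstimulated Mfp2-/- array was the lowest on that probe, with -1.11 against unstimulated wild type, where probes A_66_P129873 and A_55_P1954965 gave 0.02 and -0.11. Whether the probes read different transcripts was not tested. Over all the genes, 41 other probes of 25 genes were above background on all arrays, and the sign matched that of the probe used for 33 in the LPS response of Mfp2-/- cells, for 37 in that of wild-type cells, for 33 between genotypes with LPS, for 27 between genotypes without LPS and for 36 in the difference of the responses.

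An additive limma fit over all 4 arrays, with a term for LPS and a term for genotype, left 1 residual degree of freedom, which is the difference of the responses. For the LPS term, 0 of the 41 genes passed an adjusted p of 0.05 (Benjamini-Hochberg over 17365 genes), against 11.2% of genes called higher and 10.7% called lower. At an unadjusted p under 0.05 there were 5 of the 41, all higher with LPS, where 22.1% of all genes were higher and 22.3% lower, namely Ddx21, Noc3l, Rrp12, Rrp9 and Wdr43. The limma estimate for Wdr43 was 0.74 ± 0.14 (SE) with an adjusted p of 0.0527, the lowest of the 41, and for Noc3l 1.03 ± 0.23 with an adjusted p of 0.0678. The count of 0 changed under 4 other settings, to 5 with normexp, 3 with median centring, 4 over genes above background on all arrays and 8 with a trended prior. Over all genes the calls grew as well, from 3812 to 5982, 5042, 5247 (of 15516) and 6478 in the same order. For the genotype term limma called 0 of the 41 and 0 of all genes (up to 189 of all genes under other settings, and 0 of the 41), and at an unadjusted p under 0.05 it had 0 of the 41, against 4.23% of genes higher and 5.51% lower in Mfp2-/- cells. The lowest adjusted p of the 41 for genotype was 0.573, for Nop16. The culture is the unit here, and since each group is 1 array, these p-values rest on how far the 2 LPS responses differ and on a spread shared across genes.

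Further genes of the assembly pathway and other lists were read beside the 41. Over all measured genes, 11.1% rose and 12.4% fell with LPS in Mfp2-/- cells, and 9.97% rose and 8.39% fell in wild-type cells. The counts of the lists below are to be read beside these shares. Of 44 measured further small subunit factors, 3 rose with LPS in Mfp2-/- cells and 0 fell, with a median difference of 0.33, against 0.06 in wild-type cells, where 0 passed 2-fold. The 3 were Utp23 (1.07 in Mfp2-/- and 0.85 in wild-type cells), the kinase Riok2 (1.44 and 0.77) and Esf1 (1.06 and 0.43). Of 48 further large subunit factors, 2 rose in Mfp2-/- cells, Sdad1 (1.34 in Mfp2-/- and 0.85 in wild-type cells) and Eif6 (1.11 and 0.70), the factor that keeps the subunits apart, with medians of 0.36 and 0.11. With LPS the median difference between Mfp2-/- and wild-type cells was 0.20 for the small subunit list, with 40 of 44 above 0, and 0.22 for the large subunit list, with 38 of 48 above 0. In that comparison 51.3% of all measured genes were above 0, and 0 of either list passed 2-fold.

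**Figure D4:**
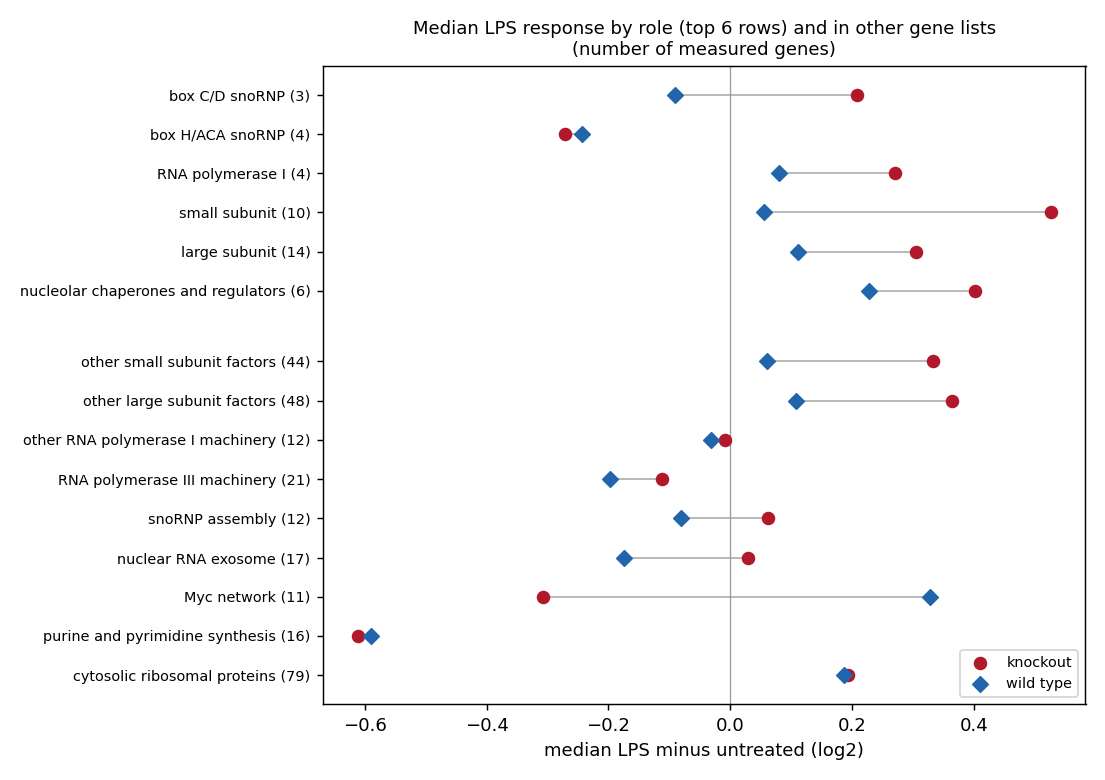
Median LPS minus untreated level (log2, x axis) of the 41 genes by role (upper 6 rows) and of other gene lists (lower rows), in knockout (Mfp2-/-, red circles) and wild-type cells (blue diamonds). The number in brackets is that of genes measured in knockout cells. In wild-type cells it was 12 for the Myc network and 78 for the cytosolic ribosomal proteins, and the same elsewhere. The knockout median is the higher one for every role but box H/ACA snoRNPs, with 0.53 against 0.06 for the small subunit. It is also higher for both lists of further assembly factors and for the RNA polymerase I, RNA polymerase III, snoRNP assembly and exosome lists. It is lower for the Myc network and for purine and pyrimidine synthesis, and the cytosolic ribosomal proteins have 0.19 in both genotypes.

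The cytosolic ribosomal proteins, the products that these factors assemble, had a median LPS difference of 0.19 in both genotypes and a median difference of the responses of 0.02. In Mfp2-/- cells 1 of 79 rose, and in wild-type cells 0 of 78 did. That 1 was Rps24, whose probe was at 6.36 and 2.92 in Mfp2-/- cells and at 7.04 and 7.15 in wild-type cells, with and without LPS. The unstimulated Mfp2-/- array was the low one for this probe.

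Of 12 further components of the RNA polymerase I machinery, 0 passed 2-fold in any comparison, with medians of -0.01 in Mfp2-/- and -0.03 in wild-type cells. The largest response was that of Ubtf, the upstream binding factor of ribosomal DNA, at 0.96 in Mfp2-/- and 0.92 in wild-type cells. RNA polymerase III machinery had medians of -0.11 and -0.20 over 21 genes, with 2 that fell and 0 that rose in each genotype. Gtf3a, which initiates 5S ribosomal RNA transcription, fell in Mfp2-/- (-1.69) and in wild-type cells (-1.21), Polr3k fell in Mfp2-/- cells (-1.07) and Polr3g in wild-type cells (-1.10). Among 17 genes of the nuclear RNA exosome, which trims ribosomal RNA precursors, 0 passed 2-fold in Mfp2-/- cells and Exosc8 fell in wild-type cells (-1.07). Among 12 snoRNP assembly genes 0 passed 2-fold, with medians of 0.06 and -0.08.

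Genes of purine and pyrimidine synthesis, which supply the precursors of ribosomal RNA, had medians of -0.61 in Mfp2-/- and -0.59 in wild-type cells over 16 genes. In Mfp2-/- cells 3 fell, Prps2 (-2.35), Prps1 (-1.37) and Paics (-1.20), and Impdh1 rose (1.10), while in wild-type cells Prps2 (-1.68) and Paics (-1.01) fell and 0 rose. Of 11 measured genes of the Myc network, 2 rose and 3 fell with LPS in Mfp2-/- cells. In wild-type cells 2 of 12 rose and 2 fell, and the medians were -0.31 in Mfp2-/- and 0.33 in wild-type cells. The counts in Mfp2-/- cells include genes not named here, in both directions. Myc was at 1.64 in LPS-stimulated Mfp2-/- cells and at 1.31 in LPS-stimulated wild-type cells, against -3.19 in unstimulated wild-type cells, and was not well above background in unstimulated Mfp2-/- cells (measured at -5.10). It rose with LPS at least 87.3-fold in Mfp2-/- cells, where the dim array was set to the lowest signal well above background, and 22.7-fold in wild-type cells. Of the Myc antagonists, Mxi1 fell in Mfp2-/- (-1.86) and in wild-type cells (-1.11), while Mxd1 differed by -0.14 in Mfp2-/- cells and rose in wild-type cells (1.55), so that with LPS it was lower in Mfp2-/- than in wild-type cells by 2.05 on the log2 scale (-2.05). Mxd3 fell at least 5.17-fold in Mfp2-/- and at least 5.29-fold in wild-type cells, and was not well above background with LPS in either. Mxd4 differed with LPS by -0.97 in Mfp2-/- and 0.27 in wild-type cells, and was higher in unstimulated Mfp2-/- than in unstimulated wild-type cells (1.04). Max, the partner of Myc, differed by 0.32 and 0.44.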

How the data were processed

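RNA from the 4 cultures, carrying the Cy3 dye per the labels, was read on Agilent arrays of design 074809. Spot values were deposited as linear intensity. The file headers give Feature Extraction 10.7.1.1 and the submitters' processing notes 9.5.1.1. Background had been subtracted and spatial trends removed array by array, per the file headers, and the deposited flags (a unit of the type other, 0 or 1 a spot) mark spots well above background, saturated or outlying. The deposited series table holds linear intensity that matched a quantile normalization within 0.01 log2 for 56470 to 56543 of 56605 probes on each array, and it served as an alternative.

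Control and outlier spots were left out, spots of a probe were averaged, and log2 of the signal was taken minus the 75th percentile of the array (463 to 567 before scaling). A gene was represented by the probe with a value on all 4 arrays, above background on at least 1 array, with the highest mean signal. A gene entered a comparison when above background on at least 1 of its arrays, and a dim array was set to its floor for the call. The technical SD is the median, over up to 277 probes with the most spots, of the root of the summed spot variances of the arrays compared. The limma fit used genes above background on at least 2 arrays and was tested on simulated data. Every simulated gene had the same noise SD, 0.145 from the fit's own prior, and the same LPS change in both genotypes apart from that noise. Among 17365 genes, 100% of 100 genes changed by 1 on the log2 scale and 100% of 100 changed by 2 were recovered for the LPS term, and 9 unchanged genes were called. The simulation does not show how often such changes are found in the measured data, where noise differs between genes and Noc3l, with an estimate of 1.03, was not called.

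All 41 genes could be named, together with Hsd17b4, Myc, Mxd1, Max and Polr1d and, from each other list, the 3 measured genes with the largest difference in each comparison. The genes and lists were chosen with earlier results of these data known, and roles were assigned from general knowledge. Twistnb, Cd3eap and Znrd1 are the file's names of the RNA polymerase I subunits Polr1f, Polr1g and Polr1h. R 4.3.3, limma 3.58.1, Python 3.11.15, numpy 2.4.6, pandas 2.3.3 and matplotlib 3.10.9 were used. Alternatives were normexp (offset 50), quantile normalization, median and spike-in (7 probes) centring, other filters, the mean of a gene's probes, a 1.5-fold threshold, the deposited series table and a trended prior.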

Additional observations from a re-analysis of the deposited data

Results flagged for a closer look

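For 5 of the 41 genes the LPS differences had opposite signs in the genotypes, each larger than its technical SD, and the difference between the genotypes was not tested since each group is 1 array. The same held for 1154 of the 15516 genes above background on all arrays (7.44%), against 12.2% of the 41. The technical SD covers the spots of an array and not the spread between cultures. The difference of the responses was 0.55 on the log2 scale for Nop58 (0.38 in Mfp2-/- and -0.17 in wild-type cells), 0.45 for Rrs1 (0.20 and -0.25), 0.30 for Fbl (0.21 and -0.09), 0.30 for Ncl (0.23 and -0.06) and 0.27 for Polr1b (0.20 and -0.07). All 5 were positive in Mfp2-/- cells and negative in wild-type cells, as were 519 of the 1154 genes, and 0 of the 5 passed 2-fold in either. These signs depend on the scaling. Spike-in centring shifts all genes of a comparison by the same amount, and it moved the median LPS difference of the 41 in Mfp2-/- cells from 0.28 to 0.044. A second Polr1b probe, above background on 2 arrays, gave -0.94 in Mfp2-/- and -1.14 in wild-type cells. A second Ncl probe, above background on all 4 arrays, gave 0.06 in Mfp2-/- and -0.22 in wild-type cells. Its difference in Mfp2-/- cells was under the technical SD of 0.0943. Fbl and Rrs1 were each measured by a single probe.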

How the results depend on the processing

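No paired analysis was possible because each group is 1 array, and leaving out an array leaves the additive fit no residual degrees of freedom. The 5 genes that rose with LPS in Mfp2-/- cells became 3 with normexp, 2 with spike-in centring (Noc3l and Rrp9) and 8 at 1.5-fold. In wild-type cells 0 became 4 at 1.5-fold, with Ddx21, Noc3l and Wdr43 higher and Rrp1b lower. Nop14 as the 1 gene higher in Mfp2-/- cells with LPS became 0 with normexp. The 1 gene past 2-fold in the difference of the responses became 0 with normexp, quantile normalization and the deposited series table, and 4 at 1.5-fold. The 0 genes of the limma LPS term became 5 with normexp, 3 with median centring, 4 over genes above background on all 4 arrays and 8 (7 higher, 1 lower) with a trended prior. Over all genes the LPS term called 5982, 5042, 5247 and 6478 there, against 3812 in the main fit. For the genotype term 0 of the 41 genes were called under all settings run. Over all genes that term called 26 with normexp, 189 with median centring, 83 with a trended prior, 9 over genes above background on all 4 arrays and 0 under the others. Median LPS differences were 0.15 with quantile normalization, 0.15 with the series table, 0.42 with median centring and 0.044 with spike-in centring in Mfp2-/- cells (0.28), and -0.049, -0.054 and -0.18 with quantile normalization, the series table and spike-in centring in wild-type cells (0.04), where the sign turned. With median centring the medians were 0.42 between genotypes with LPS (0.22), 0.065 without LPS (-0.01) and 0.35 for the difference of the responses (0.22), and with the mean of a gene's probes it was -0.078 without LPS. The median over all genes itself moved to -0.24 in Mfp2-/- and -0.20 in wild-type cells with spike-in centring, and to 0.14 in Mfp2-/- cells and 0.21 between genotypes with LPS with median centring. Over all genes, spike-in centring gave 1474 higher and 3191 lower with LPS in Mfp2-/- cells (2045 and 2274 otherwise) and 1322 and 2220 in wild-type cells (1815 and 1527), and median centring gave 2485 and 1864 in Mfp2-/- cells, and 532 higher and 614 lower between genotypes with LPS (297 and 823). The 41 genes' median minus that of all genes was between 0.21 and 0.28 for the LPS response of Mfp2-/- cells, except 0.05 with no filter on dim probes. It was between 0.16 and 0.28 between genotypes with LPS. Median and spike-in centring shift all genes of an array alike, and the 1.5-fold threshold leaves the values as they are. These 3 settings could not change that gap, so only the other settings bear on it. The reference in every setting was all measured genes. The brightest 3879 genes, with 28 of the 41 among them, had a median LPS difference of 0.15 in Mfp2-/- cells. Between genotypes with LPS their median was 0.03. Both values are for the main scaling, and bright genes were not used as the reference under other settings. Every difference rests on single arrays.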
